A study of Mus musculus with 8 samples.

Results

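The potassium channel genes were taken as all genes of the deposited gene table whose GRCm38 symbol starts with Kcn and that held at least 10 counts in at least 4 of the 8 wells. Of the 99 Kcn genes among the 45706 genes of the table, 74 met this rule, as did 15038 genes in all. By the channel they build, these 74 were 36 voltage-gated genes (of 40 in the table), 9 inward rectifiers (of 15), 9 two-pore channels (of 14), 4 calcium-activated channels (of 5), both sodium-activated channels, 10 auxiliary subunits (of 16), the pH-sensitive *Kcnu1*, and 3 noncoding transcripts named after a neighbouring channel gene (of 5). The 25 genes under the rule had between 0 and 15 counts in any well, and *Kcnk18* was at 0 in all wells. Nearest to the rule on the inside were *Kcnk6* (the two-pore subunit TWIK2), with 6 to 16 counts, and *Kcnq1* (Kv7.1), with 4 to 15. Nearest on the outside was *Kcnj5*, which encodes the G-protein-gated inward rectifier Kir3.4, with 5 to 15 counts and 10 or more in only 3 wells.

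Potassium channels let potassium leave the cell along its gradient and so set the resting potential, end the action potential and space out spikes. Voltage-gated channels open on depolarization, calcium-activated and sodium-activated channels open when these ions enter the cell, two-pore channels leak at rest, and inward rectifiers hold the membrane near the potassium equilibrium. Among the inward rectifiers, the GIRK channels are opened by G protein beta-gamma subunits, which makes them a common target of inhibitory receptors in the hippocampus, and *Mchr1*, the receptor of melanin-concentrating hormone (MCH), is a G-protein-coupled receptor.

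The wells held hippocampal neurons cultured from C57/Bl6 *Wt* mouse embryos at embryonic day 18, treated for 4 h with vehicle (H2O, 4 wells) or with 1 µM MCH peptide (4 wells) and collected at 12 to 14 days in vitro. The wells came from 2 independent cultures, each with 2 wells of either treatment, and which culture a replicate came from is not given in the sources used here. The labels carry an Alzheimer's disease tag, although their genotype entry is wild type for every well. Poly-A RNA was sequenced in bulk, so fewer cells of a type and less RNA per cell cannot be told apart, and the P values measure the spread between wells, part of which may be technical.

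Each well held 26083936 to 31844861 estimated counts, of which the potassium channel genes took 0.419 to 0.442%. Replicates 1 and 2 of both treatments stood apart from replicates 3 and 4, along a first principal component with 59.8% of the variance after treatment means were removed. All 8 neuron markers were present, with a summed level of 4606 to 5018 TPM (salmon's transcript level, scaled to length and depth) in vehicle-treated and 4626 to 5220 in MCH-treated wells. The 7 astrocyte markers summed to 222 to 307 TPM in replicates 1 and 2 and to 1006 to 1193 in replicates 3 and 4, and overlapped between treatments (269 to 1059 and 222 to 1193). The inhibitory neuron markers overlapped in sum between treatments as well (3229 to 5035 TPM with vehicle and 3032 to 4866 with MCH), but all 7 had fold changes below 0. None of the 7 was called without a block. With the side block that also gave channel calls, 2 were called as lower, where 2.61% of all genes were. These were *Gad1* (log2 fold change −0.097, edgeR, adjusted P = 0.0267) and *Vip* (−0.23, adjusted P = 0.0225). In CPM (counts scaled to the library size), all MCH-treated wells of *Vip* lay below the vehicle-treated ones. In TPM they overlapped, at 35.6 to 39.8 with vehicle and 29.4 to 35.9 with MCH. No marker of another list was called with that block, and the part of these markers in the channel results was not tested. Since each treatment has 2 wells on each side, differences are also given within the first side (replicates 1 and 2) and the second (replicates 3 and 4), beside fits with the side or the replicate number as a block. Wells of the same number were about as alike as other wells on the same side, so comparisons by numbered pair are a description only.

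The first question was which channels these neurons expressed, compared between genes in TPM. The median potassium channel gene had 13.5 TPM, against 16.9 TPM for all genes tested, and 44 of the 74 (59.5%) exceeded 10 TPM, against 60.4% of all genes. The 3 highest levels belonged to genes of 3 different classes, the inward rectifier *Kcnj4*, the auxiliary subunit *Kcnab2* and the calcium-activated *Kcnma1*, at 129.7, 129 and 125 TPM. The well ranges of these 3 overlapped, 118 to 146, 117 to 146 and 114 to 145 TPM, so their order is not resolved.

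**Figure D1:**
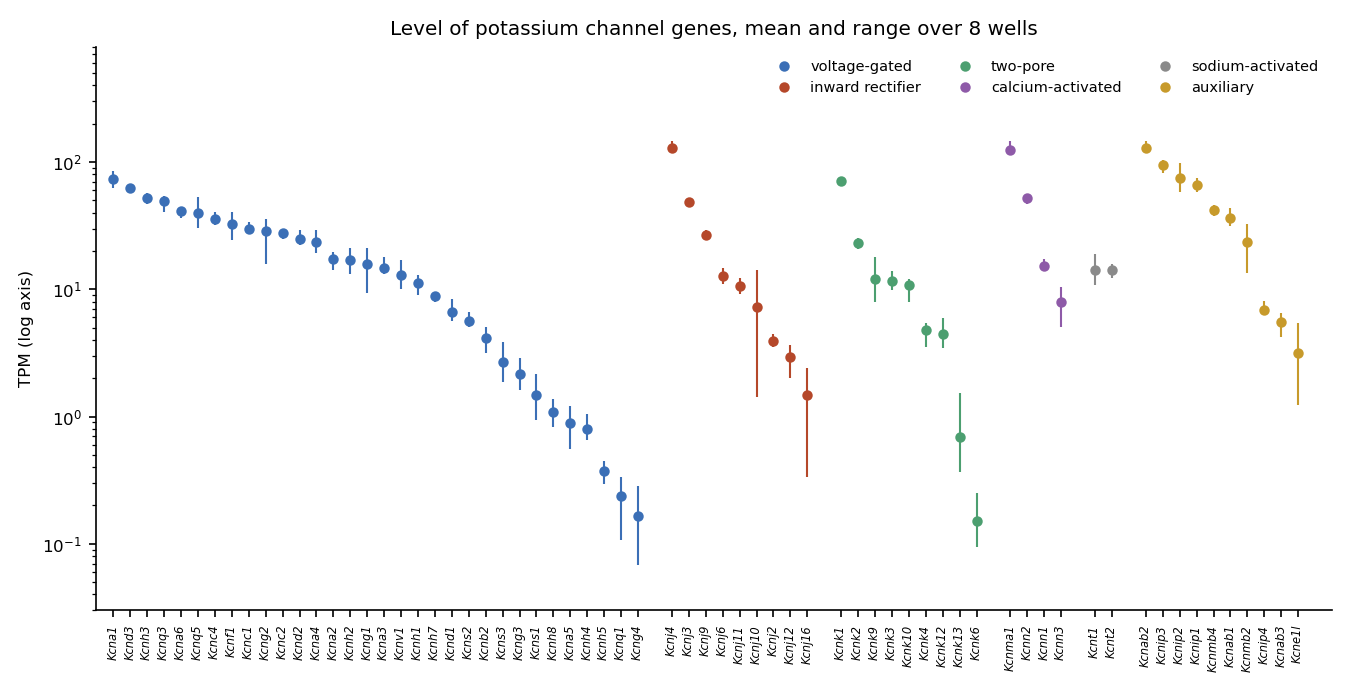
Level in TPM (log axis) of the channel and auxiliary subunit genes reported by name, by class and ordered by mean. Points are means and lines the range over the 8 wells of both treatments. *Kcnj4*, *Kcnab2* and *Kcnma1* lie highest, at 125 to 129.7 TPM, and *Kcnj10* spans 1.42 to 14.2 TPM.

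Among the voltage-gated genes, the Kv7 subunits of the M-current, which opens slowly below spike threshold and limits repetitive firing, included *Kcnq3* (Kv7.3) at 49.3 ± 5.10 TPM (SD, n = 8 wells) and *Kcnq5* (Kv7.5) at 39.8 ± 8.11 TPM. *Kcnq1*, known from the heart, had 0.237 TPM. The Kv1 subunit of axons *Kcna1* (Kv1.1) had 73.3 ± 8.74 TPM, the highest of the 6 Kv1 genes measured, followed by *Kcna6* at 41.00 ± 2.70 TPM. The A-type subunits *Kcnd3* (Kv4.3) and *Kcnd2* (Kv4.2), which give the fast inactivating current of dendrites, had 62.2 ± 2.49 and 24.9 ± 2.17 TPM. The Kv3 genes *Kcnc1*, *Kcnc2* and *Kcnc4*, which allow fast repolarization, lay close together at 27.8 to 35.5 TPM.

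Silent subunits do not form channels alone and join Kv2 subunits instead. Of the 9 that met the rule, *Kcnf1* (Kv5.1) was at 32.8 ± 5.30 TPM, *Kcng2* (Kv6.2) at 28.6 ± 6.78, *Kcng1* (Kv6.1) at 15.8 ± 4.55 and *Kcnv1* (Kv8.1) at 12.97 ± 2.30 TPM, and the other five lay between 0.167 and 5.64 TPM. Of the level of *Kcng2*, 61.7% came from a transcript of 279 bases whose length makes its TPM uncertain, and 10.95 TPM remained without it. The 7 Kv10 to Kv12 genes ranged from 0.373 (*Kcnh5*) to 52.01 TPM (*Kcnh3*).

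Among the inward rectifiers, *Kcnj4* (Kir2.3) carried 53.2% of the summed level. Kir2 channels rectify strongly and stabilize the resting potential, and the other genes of that subfamily were low, *Kcnj2* (Kir2.1) at 3.90 ± 0.367 TPM and *Kcnj12* (Kir2.2) at 2.93 ± 0.504 TPM, with *Kcnj14* (Kir2.4) under the rule at 3 to 12 counts. The GIRK genes *Kcnj3* (Kir3.1), *Kcnj9* (Kir3.3) and *Kcnj6* (Kir3.2) had 48.6 ± 1.86, 26.6 ± 1.74 and 12.8 ± 1.06 TPM, and the well ranges of these 3 did not overlap (46.1 to 51.4, 24.7 to 29.1 and 10.97 to 14.6 TPM). The fourth GIRK gene, *Kcnj5*, was under the rule. *Kcnj11* (Kir6.2), the pore of the ATP-sensitive channel, had 10.6 ± 1.19 TPM, close to *Kcnj6*. Its sulfonylurea receptor *Abcc8* had 3.72 TPM, and *Abcc9*, the receptor of muscle channels, had 0.012 TPM.

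The two-pore class was led by *Kcnk1* (TWIK1), with 71.1 ± 2.32 TPM and 51.4% of the summed level. *Kcnk2* (TREK1), which responds to stretch and lipids, followed with 22.9 ± 1.84 TPM. The acid-sensitive TASK genes *Kcnk9* and *Kcnk3* had 12.1 ± 3.88 and 11.5 ± 1.57 TPM and *Kcnk10* (TREK2) 10.7 ± 1.31 TPM, which overlapped. The other four ranged from 0.152 (*Kcnk6*) to 4.77 TPM (*Kcnk4*). Among the calcium-activated genes, *Kcnma1*, the large-conductance BK channel, had 125 ± 10.2 TPM and 62.5% of the summed level. The small-conductance SK genes *Kcnn2*, *Kcnn1* and *Kcnn3*, which give the afterhyperpolarization, followed at 51.6 ± 2.54, 15.1 ± 1.19 and 7.93 ± 2.13 TPM, with no overlap of their ranges between wells. The intermediate-conductance gene *Kcnn4* had 0 to 4 counts.

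The level of *Kcnma1* rests in part on annotation. Its transcript *Kcnma1-205*, of 1353 bases, held 71.0 of the 125 TPM, and the deposited gene table counts that transcript under another gene. Without it *Kcnma1* had 53.6 TPM and moved from rank 3 to rank 11 among the 74. CPM values of *Kcnma1* below come from the gene table and leave that transcript out.

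The auxiliary subunits held 24.3% of the summed level of all potassium channel genes. *Kcnab2*, a cytoplasmic beta subunit of Kv1 channels, had 129 ± 9.75 TPM, and *Kcnab1* had 36.6 ± 4.05 TPM. The KChIP genes, whose calcium-binding products join Kv4 channels, came next, with *Kcnip3* at 94.2 ± 8.66 TPM, *Kcnip2* at 74.3 ± 14.97 TPM and *Kcnip1* at 66.04 ± 5.53 TPM, whereas *Kcnip4* had 6.92 ± 0.560 TPM. The beta subunit of neuronal BK channels, *Kcnmb4*, had 41.8 ± 2.89 TPM. *Kcnmb2* had 23.5 ± 6.90 TPM, of which 67.4% sat on a transcript of 338 bases. Both sodium-activated genes, *Kcnt1* (Slack) and *Kcnt2* (Slick), had 14.2 and 14.04 TPM. *Kcnu1*, the Slo3 channel of sperm, was listed at 7.59 ± 0.933 TPM, and this level sat on 2 short transcripts, with 0.04 TPM on the full-length one.

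Summed over members, the voltage-gated class had 857 ± 11.6 TPM in vehicle-treated wells (SD, n = 4), or 44.0% of the level of all potassium channel genes over the 8 wells. Inward rectifiers took 12.3%, calcium-activated channels 10.1%, two-pore channels 6.99% and sodium-activated channels 1.43%. The place of the calcium-activated class rests on the transcript *Kcnma1-205*, without which its sum was 128 TPM in place of 199 and lay below the two-pore sum of 138 TPM. Per gene the order differed, with a median of 39.2 TPM for auxiliary, 33.4 for calcium-activated, 16.4 for voltage-gated, 10.7 for two-pore and 10.6 TPM for inward rectifier genes.

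The inward rectifier sum was 246, 249.9, 247 and 248 TPM in vehicle replicates 1 to 4 and 237, 239.5, 242 and 241 TPM in MCH replicates 1 to 4. The MCH-treated wells all lay below the vehicle-treated ones, by 0.047 on the log2 scale. The means were 248 and 240 TPM, and those of *Kcnj4* within them 134 and 125 TPM. The calcium-activated sum was 188, 181, 201 and 195 TPM with vehicle and 218, 199, 208 and 204 TPM with MCH, and these overlapped between vehicle replicate 3 and MCH replicate 2. The voltage-gated sums of 849 to 874 and 854 to 938 TPM overlapped, as did the two-pore sums (132 to 144 and 130.1 to 151) and the auxiliary sums (465 to 494 and 456 to 506). The sodium-activated sums did not overlap (25.6 to 27.8 and 28.0 to 31.2 TPM), higher with MCH by 0.14 on the log2 scale, but the direction was opposite in CPM, where *Kcnt1* and *Kcnt2* overlapped between treatments with log2 fold changes of −0.016 and −0.057. No test was made of these sums.

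**Figure D2:**
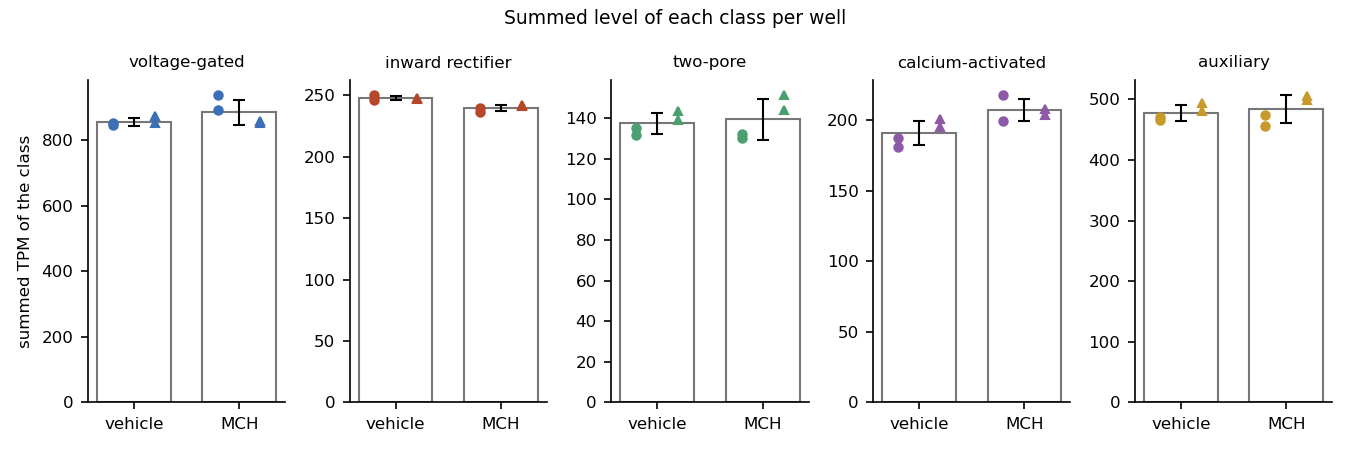
Summed TPM of each class per well, by treatment. Bars are means, error bars SD over 4 wells, circles replicates 1 and 2 and triangles replicates 3 and 4, each panel with its own scale from 0. The inward rectifier sums do not overlap between treatments, at 246 to 249.9 TPM with vehicle and 237 to 242 TPM with MCH.

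The second question was the response to MCH, measured on CPM (counts scaled to the library size) with edgeR's quasi-likelihood test, with P values adjusted by Benjamini–Hochberg over the 14962 genes left by its filter on low counts and a threshold of 0.05. *Kcnk6* did not pass that filter, which left 73 potassium channel genes. Without a block, 0 of the 73 passed the threshold, where 0.234% of all genes did. At an unadjusted P under 0.05 there were 10 (4 lower and 6 higher with MCH), or 13.7% against 8.5% of all genes. DESeq2, the tool of the study, called *Kcnf1* alone, as lower (1.25% of all genes, 0.742% lower and 0.51% higher), although 8 of the 73 had no adjusted P there. With the replicate number as a block 8 passed, or 10.96% against 3.98% of all genes, 5 lower (2.25% of all genes) and 3 higher (1.73%). With the side as a block 7 of these 8 passed, or 9.59% against 4.46%, 5 lower (2.61%) and 2 higher (1.85%). The 4 MCH-treated wells lay below all 4 vehicle-treated wells in 3 genes, *Kcnf1*, *Kcnj2* and *Kcnk3*, and above them in 0, that is 4.11% of the 73 against 6.03% of all genes (2.96% below and 3.07% above).

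Most differences were small. Of the 73 fold changes, 31 were below 0 (42.5%, against 51% of all genes) and 42 above, with a median of 0.017 on the log2 scale (−0.0027 over all genes), and 39 were within 0.1 of 0. By class, 12 of 36 voltage-gated fold changes were below 0 (median 0.040), 5 of 9 of the inward rectifiers (−0.019), 4 of 8 of the two-pore channels (−0.024), 0 of 4 of the calcium-activated channels (0.055), 6 of 10 of the auxiliary subunits (−0.034) and both of the sodium-activated channels (−0.037). The single and noncoding genes aside, class medians lay between −0.037 and 0.055. The calls made with a block were in 2 classes, 6 voltage-gated and 2 inward rectifier genes, with 0 among two-pore, calcium-activated, sodium-activated and auxiliary genes. The difference in calls between classes was not tested.

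**Figure D3:**
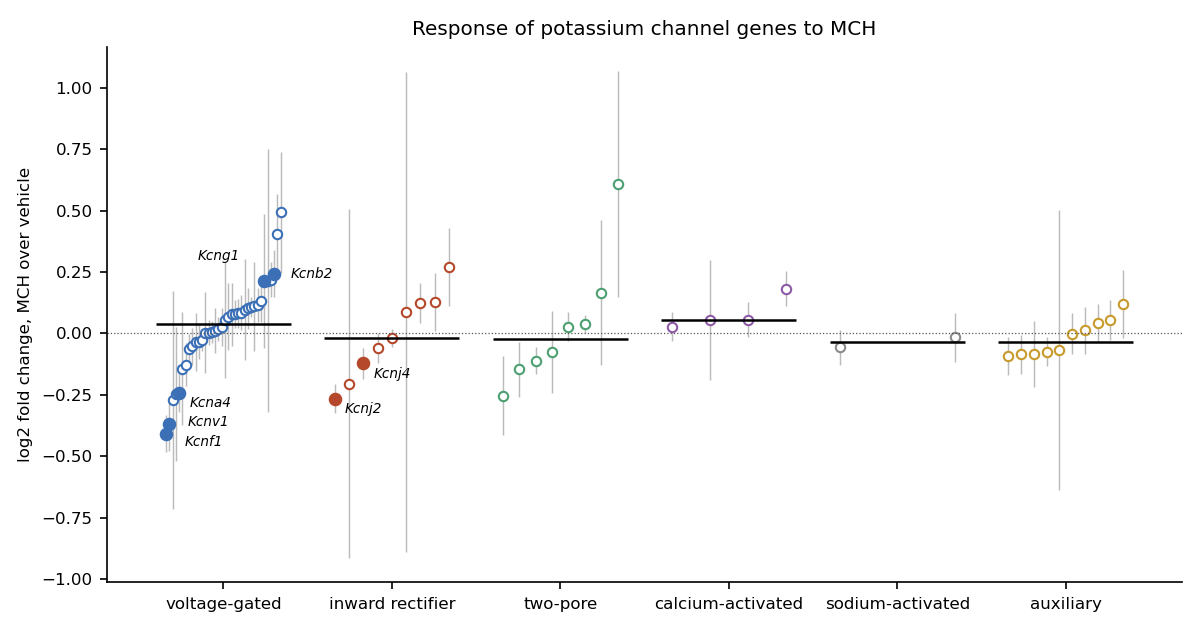
Log2 fold change of CPM, MCH over vehicle, for the tested genes of each class, ordered by value. Lines are standard errors of the fit without a block, black bars class medians, and filled points the 7 genes called with the side as a block. Class medians lie between −0.037 and 0.055, and 5 of the 7 filled points are below 0.

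Of the 9 silent subunits, 3 were called with either block, *Kcnf1*, *Kcnv1* and *Kcng1*. Of all genes, 3.98% were called with the replicate block and 4.46% with the side block. *Kcnf1* (chromosome 12, 17172100 to 17176888, minus strand) had 93.4, 97.8, 100.4 and 109 CPM in vehicle replicates 1 to 4 and 74.8, 64.9, 82.3 and 79.6 CPM in MCH replicates 1 to 4. All 4 MCH-treated wells were below all vehicle-treated wells. The means were 100.03 ± 6.35 and 75.4 ± 7.64 CPM (SD, n = 4). The log2 fold change was −0.41 (standard error 0.075, 95% confidence interval −0.58 to −0.24), −0.46 on the first side and −0.37 on the second. The adjusted P from edgeR was 0.0941 without a block, 8.23e-05 with the replicate block and 1.64e-05 with the side block, and DESeq2 gave 1.33e-04. It was the lowest fold change among the 73.

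*Kcnv1* (chromosome 15, 45106284 to 45114920, minus strand), a silent subunit known mainly from the brain, had 35.4, 32.2, 42.4 and 36.1 CPM with vehicle and 25.1, 25.3, 33.2 and 29.6 CPM with MCH. It was lower with MCH in each of the 4 numbered pairs, but vehicle replicate 2 lay below MCH replicate 3, so the groups overlapped. The log2 fold change was −0.37 (standard error 0.11), −0.42 on the first side and −0.32 on the second. Adjusted P values from edgeR were 0.348 without a block, 2.13e-04 with the replicate block and 6.92e-04 with the side block.

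*Kcng1* (chromosome 2, 168260117 to 168281736, minus strand) went the other way, with 25.8, 21.6, 42.8 and 39.2 CPM with vehicle and 30.4, 27.4, 46.8 and 45.4 CPM with MCH. Here the sides were further apart than the treatments, with every well of replicates 3 and 4 above every well of replicates 1 and 2, and within each pair MCH was the higher. The log2 fold change of 0.21 therefore had a standard error of 0.27 without a block (edgeR, adjusted P = 0.934) and of 0.057 with the side block, where its adjusted P was 0.0278 (0.0135 with the replicate block). Without a block and with 1 well left out, it ranged from 0.066 (without vehicle replicate 2) to 0.38 (without vehicle replicate 3). The other six silent subunits were not called in any of these fits. Of the Kv2 genes that these subunits join, *Kcnb2* (chromosome 1, 15287254 to 15723750, plus strand) had 20.3, 16.6, 20.7 and 20.5 CPM with vehicle and 23.1, 20.2, 22.8 and 26.3 CPM with MCH, higher in each numbered pair. Vehicle replicate 2 was the lowest well of *Kcnb2* and MCH replicate 2 the lowest with MCH, below 3 of the vehicle-treated wells. Its log2 fold change was 0.24 (standard error 0.096), with adjusted P values from edgeR of 0.519 without a block, 0.0243 with the replicate block and 0.0488 with the side block.

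**Figure D4:**
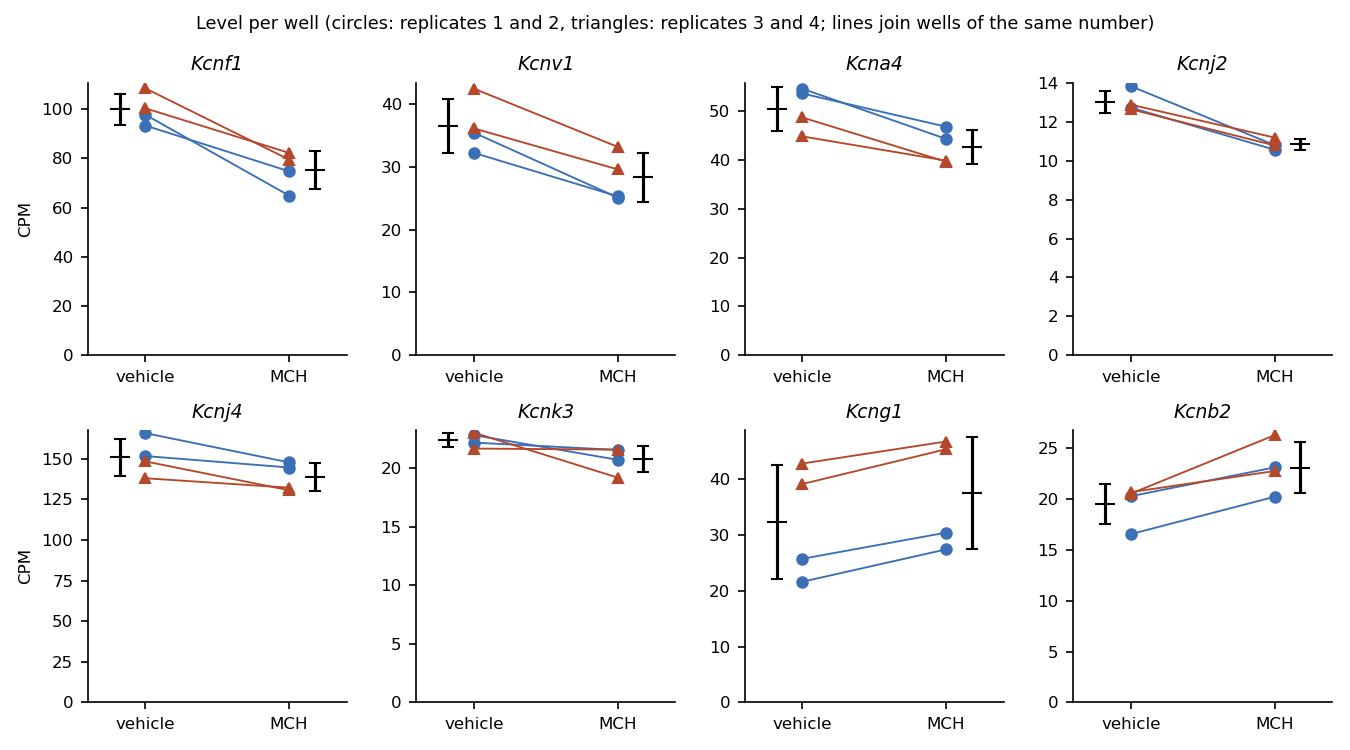
CPM of 8 genes in each well, with vehicle on the left and MCH on the right of each panel, axes from 0. Lines join wells of the same replicate number, circles are replicates 1 and 2, triangles replicates 3 and 4, and black bars mean ± SD of 4 wells. The lines of *Kcnf1*, *Kcnv1*, *Kcna4*, *Kcnj2*, *Kcnj4* and *Kcnk3* fall in all 4 pairs, steeply in *Kcnf1* and by very little in replicate 3 of *Kcnk3*, and those of *Kcng1* and *Kcnb2* rise in all 4.

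Of the 6 Kv1 genes, 2 were called with the replicate block (3.98% of all genes), in opposite directions, and 1 of them with the side block (4.46%). *Kcna4* (chromosome 2, 107290639 to 107298502, plus strand), the A-type Kv1.4 subunit, had 53.6, 54.6, 48.7 and 44.8 CPM with vehicle and 46.8, 44.3, 39.7 and 39.9 CPM with MCH. All pairs were lower with MCH, and vehicle replicate 4 was below MCH replicate 1, so the groups overlapped. The log2 fold change was −0.24 (standard error 0.077), −0.25 on the first side and −0.23 on the second. Adjusted P values from edgeR were 0.399 without a block, 0.00305 with the replicate block and 0.00141 with the side block. Its TPM did not follow this direction, with 19.9, 22.2, 22.99 and 23.1 with vehicle and 27.9, 29.3, 19.2 and 22.03 with MCH, and an offset for effective length turned the log2 fold change to 0.14. The gene has 2 transcripts here. The coding *Kcna4-201*, of 4792 bases, had 53.9, 54.5, 48.5 and 44.8 CPM with vehicle and 46.2, 43.4, 39.5 and 39.7 CPM with MCH, a log2 fold change of −0.26. The noncoding *Kcna4-202*, of 370 bases, had under 1 CPM in every well and yet 26.0% of the TPM of the gene.

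*Kcna2* (chromosome 3, 107101146 to 107115005, plus strand), the Kv1.2 subunit of axons, had 104, 89.3, 108 and 103 CPM with vehicle and 125, 106, 118 and 122 CPM with MCH. Every pair was higher with MCH, and the groups overlapped, since MCH replicate 2 was below vehicle replicate 3. Its log2 fold change was 0.22 (standard error 0.070), with adjusted P values from edgeR of 0.399 without a block, 9.44e-04 with the replicate block and 0.101 with the side block, so that the call rested on the replicate block. The counts show no pairing by number beyond the side, so this call is uncertain. *Kcna1*, the most abundant gene of the subfamily, had a log2 fold change of −0.035 (standard error 0.12), 0.025 on the first side and −0.11 on the second.

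Both inward rectifiers that were called with a block were Kir2 genes, 2 of the 3 tested, against 3.98% of all genes with the replicate block and 4.46% with the side block. *Kcnj2* (chromosome 11, 111066164 to 111076821, plus strand) had 12.7, 13.8, 12.7 and 12.9 CPM with vehicle and 10.6, 10.8, 10.8 and 11.2 CPM with MCH. Every vehicle-treated well lay above every MCH-treated one, and the replicates of each treatment were close together, with SDs of 0.549 and 0.26 CPM. The log2 fold change was −0.27 (standard error 0.060), −0.31 on the first side and −0.22 on the second. Adjusted P values from edgeR were 0.179 without a block, 0.0414 with the replicate block and 0.0281 with the side block. *Kcnj4* (chromosome 15, 79483714 to 79505241, minus strand) had 152, 166, 138 and 148 CPM with vehicle and 145, 148, 132 and 131 CPM with MCH. It was lower with MCH in each pair, by less than the range among vehicle-treated wells, and the groups overlapped. The log2 fold change was −0.12 (standard error 0.063), with adjusted P values from edgeR of 0.662 without a block, 0.0482 with the replicate block and 0.0432 with the side block. Without vehicle replicate 2, its highest well, the log2 fold change was −0.068. The other Kir2 gene that was tested, *Kcnj12*, had 3.10, 2.46, 3.63 and 3.57 CPM with vehicle and 4.06, 3.38, 3.60 and 4.35 CPM with MCH, a log2 fold change of 0.27 (standard error 0.16) that was not called in any fit.

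For the 4 genes that were lower with MCH in these fits and have a RefSeq window on GRCm38.p6, the sequence around the RefSeq gene start is shown, from 250 bases before to 50 bases after it and read along the gene. For *Kcna4* that start lies upstream of the one given above, so that its window ends just before the latter. Motifs bound by activity-regulated factors were searched on both strands. These were the cyclic AMP response element TGACGTCA, its core TGACG (contained in it), the AP-1 site TGANTCA and the CArG box, and capitals mark a match.
Kcnf1: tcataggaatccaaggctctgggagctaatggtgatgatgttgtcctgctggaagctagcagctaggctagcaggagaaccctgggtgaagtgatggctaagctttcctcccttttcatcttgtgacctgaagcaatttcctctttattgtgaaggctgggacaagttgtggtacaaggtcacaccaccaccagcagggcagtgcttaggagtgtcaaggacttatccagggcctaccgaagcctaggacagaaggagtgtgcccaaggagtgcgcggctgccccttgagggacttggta
Kcnj2: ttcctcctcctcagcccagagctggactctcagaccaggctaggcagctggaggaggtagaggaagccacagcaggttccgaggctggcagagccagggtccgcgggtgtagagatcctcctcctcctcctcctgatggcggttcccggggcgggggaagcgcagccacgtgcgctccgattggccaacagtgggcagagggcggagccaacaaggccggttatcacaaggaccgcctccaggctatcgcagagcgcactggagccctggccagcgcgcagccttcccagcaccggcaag
Kcna4: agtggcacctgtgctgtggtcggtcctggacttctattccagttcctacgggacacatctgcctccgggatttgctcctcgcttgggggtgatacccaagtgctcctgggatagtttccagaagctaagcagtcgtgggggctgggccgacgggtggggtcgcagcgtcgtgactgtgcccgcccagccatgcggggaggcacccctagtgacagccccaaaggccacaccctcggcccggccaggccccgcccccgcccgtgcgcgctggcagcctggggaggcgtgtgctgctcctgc
Kcnj4: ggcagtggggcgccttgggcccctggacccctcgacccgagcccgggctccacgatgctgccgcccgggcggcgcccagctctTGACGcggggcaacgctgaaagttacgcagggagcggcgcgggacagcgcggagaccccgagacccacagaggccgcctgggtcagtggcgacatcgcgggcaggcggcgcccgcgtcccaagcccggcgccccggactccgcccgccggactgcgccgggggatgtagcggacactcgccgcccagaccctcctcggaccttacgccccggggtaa
These windows lie at chr12:17176839-17177138 (minus strand) for *Kcnf1*, chr11:111065914-111066213 (plus) for *Kcnj2*, chr2:107290339-107290638 (plus) for *Kcna4* and chr15:79505192-79505491 (minus) for *Kcnj4*. The 1 match was a core in *Kcnj4*, 167 bases before the start, and the window of *Kcnf1* had 53.0% G and C against 76.0% in that of *Kcnj4* and a median of 52.7% over all windows. Of all 32851 windows, 1.79% held the full element, 20.8% the core, 7.81% the AP-1 site and 1.63% the CArG box. Of 75 windows of 52 potassium channel genes, 0, 12 (16.0%), 3 (4.0%) and 0 held these motifs. For *Kcnv1*, *Kcng1* and *Kcnb2* no window was used here.

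The GIRK genes, the class that G protein beta-gamma subunits open, gave no call in any fit. *Kcnj3* had 117, 109.6, 113 and 109 CPM with vehicle and 110.4, 109, 111 and 111 CPM with MCH, a log2 fold change of −0.019 (95% confidence interval −0.096 to 0.059). *Kcnj9* had 52.3, 52.7, 56.7 and 58.9 and 49.9, 49.9, 57.8 and 54.1 CPM, a log2 fold change of −0.058 (−0.20 to 0.079). *Kcnj6* had 16.8, 15.7, 15.4 and 14.7 and 19.4, 17.3, 16.2 and 15.3 CPM, a log2 fold change of 0.12 (−0.061 to 0.31), higher in each numbered pair, and of 0.057 without MCH replicate 1. The values of all 3 overlapped between treatments, and the intervals bound a change in *Kcnj3* more tightly than in *Kcnj6*. Their summed level was 85.2 to 90.9 TPM with vehicle and 86.0 to 89.1 TPM with MCH. *Kcnj5* had 11, 9, 15 and 5 counts with vehicle and 15, 6, 6 and 5 with MCH, too few to compare.

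Nor were the M-current genes *Kcnq3* and *Kcnq5* called. *Kcnq3* had 297, 272, 353 and 325 CPM with vehicle and 346, 297, 344 and 351 CPM with MCH, a log2 fold change of 0.10 (95% confidence interval −0.087 to 0.29), and MCH replicate 2 was below the other MCH-treated wells. *Kcnq5* had 160.2, 156, 126 and 115 and 175, 185, 119.7 and 121 CPM, a log2 fold change of 0.11 (−0.31 to 0.53). In *Kcnq5* the wells of replicates 1 and 2 were above those of replicates 3 and 4 in both treatments, and its difference was 0.19 on the first side and 0.00013 on the second. *Kcng3* (Kv6.3), a silent subunit chosen after its values were seen, had an unadjusted P under 0.05 without a block, with a log2 fold change of 0.40 and an adjusted P from edgeR of 0.547. Its difference was 0.77 on the first side and 0.038 on the second.

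Among two-pore genes, *Kcnk3* (TASK1) had 22.2, 22.8, 21.7 and 23.03 CPM with vehicle and 21.6, 20.7, 21.6 and 19.2 CPM with MCH. The groups did not overlap, although vehicle replicate 3 and MCH replicate 3 nearly met, and the log2 fold change was −0.11 (standard error 0.054, edgeR, adjusted P = 0.631 without a block and 0.345 with the replicate block), or −0.068 without MCH replicate 4. Its TPM overlapped, at 13.8, 13.6, 10.4 and 10.9 with vehicle and 10.4, 9.93, 12.7 and 10.5 with MCH. *Kcnk1* and *Kcnk2* had log2 fold changes of 0.039 and 0.028 (standard errors 0.038 and 0.060). *Kcnk9* had 0.17 with a standard error of 0.29, since its wells differed by side, 4.53 to 5.56 CPM in replicates 1 and 2 and 7.50 to 10.01 in replicates 3 and 4.

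All 4 calcium-activated genes had log2 fold changes above 0, and none was called. *Kcnma1* had 125, 122, 133 and 114 CPM with vehicle and 161, 136, 132 and 132 CPM with MCH, a log2 fold change of 0.18 (standard error 0.072, edgeR, adjusted P = 0.518 without a block, 0.0955 with the replicate block). MCH replicate 1 was well above the other wells, and vehicle replicate 3 was above MCH replicates 3 and 4. The difference was 0.26 on the first side and 0.099 on the second, and without MCH replicate 1 it was 0.11. The transcript *Kcnma1-205* that the gene table leaves out had 42.7, 43.5, 44.4 and 46.8 CPM with vehicle and 51.03, 49.3, 46.9 and 45.2 CPM with MCH. The TPM of *Kcnma1*, which include that transcript, were 116, 114, 122 and 117 with vehicle and 145, 131, 127 and 125 with MCH. They did not overlap, unlike the CPM, and no test was made of TPM. *Kcnn1*, *Kcnn2* and *Kcnn3* had log2 fold changes of 0.057, 0.028 and 0.053, with standard errors of 0.070, 0.058 and 0.24.

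The auxiliary genes ranged from −0.093 (*Kcnmb2*) to 0.12 (*Kcnip2*), with all but *Kcnip2* within 0.1 of 0. *Kcnab2* had 192 ± 18.9 and 199 ± 17.1 CPM (SD, n = 4), and *Kcnip3* 141 ± 10.7 and 133 ± 13.7 CPM, lower with MCH in each numbered pair. The noncoding *Kcnq1ot1*, the imprinted transcript antisense to *Kcnq1*, had 1.86, 1.92, 2.68 and 1.93 CPM with vehicle and 4.89, 3.15, 2.25 and 2.49 CPM with MCH and was not called (log2 fold change 0.61, edgeR, adjusted P = 0.563). Its MCH replicate 1 held the highest value. Beyond the channel genes themselves, 16 genes for partner proteins were looked at, of which 12 were tested. None was called without a block, with the side block or by DESeq2, 0 had an unadjusted P under 0.05, and their fold changes ran from −0.080 for *Lrrc55*, a gamma subunit of BK channels, to 0.22 for *Ank3*, which anchors Kv7 channels at the axon initial segment. The value of *Ank3* rested on MCH replicate 1, with 197 TPM against 130 to 145 in the other MCH-treated and 126 to 133 in the vehicle-treated wells.

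The deposited transcript tables gave a further readout. Of 268 annotated transcripts of the potassium channel genes, 149 passed the filter, and 39 of the 73 genes had a single one. None was called without a block (0% of all 33527 transcripts), with the side block (0.0179%) or with the replicate block. At an unadjusted P under 0.05 there were 8 (5 lower and 3 higher), 5.37% against 4.4% of all transcripts. These included the only tested transcripts of *Kcnf1*, *Kcnv1* and *Kcnj2*, with log2 fold changes of −0.41, −0.37 and −0.27. For single-transcript genes they repeat the gene counts and add no independent evidence. In *Kcnb2* the shorter *Kcnb2-202*, of 3963 bases, had 3.77, 3.74, 4.85 and 3.90 CPM with vehicle and 5.73, 5.29, 5.32 and 5.59 CPM with MCH, which did not overlap. The values of *Kcnb2-201*, of 14845 bases, did overlap, at 16.6, 12.8, 15.9 and 16.8 and 17.4, 14.9, 17.6 and 20.9 CPM. No rule set the choice of these transcripts, and neither was called. How often other transcripts part by treatment is not given here, and a difference between these transcripts was not tested.

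More potassium channel genes were parted by the side of the wells than by treatment. The sides were read from these same counts, so the values are a description. In 33 of the 73 genes all 4 wells of replicates 1 and 2 lay on one side of all 4 wells of replicates 3 and 4, 45.2% against 29.6% of all genes, with 19 lower in replicates 1 and 2 (16.6% of all genes) and 14 higher (13%). The largest differences were in *Kcnj10* (Kir4.1) and *Kcnj16* (Kir5.1), which together form the potassium-buffering channel of astrocytes. *Kcnj10* had 7.16, 5.04, 5.33 and 4.28 CPM in replicates 1 and 2 and 41.1, 30.9, 42.6 and 37.4 CPM in replicates 3 and 4, a log2 difference of −2.81. That of *Kcnj16* was −2.07. The accessory gene *Kcne1l*, the silent subunits *Kcng4* and *Kcng1*, the two-pore genes *Kcnk13* and *Kcnk9* and the SK gene *Kcnn3* were also lower in replicates 1 and 2, with log2 differences of −1.64, −1.38, −0.73, −1.09, −0.81 and −0.66.

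Higher in replicates 1 and 2 were *Kcnq5* (0.49), *Kcna1* (0.32), *Kcng2*, *Kcnh1* and *Kcnab2*. Of the 14 genes on that side, 11 were voltage-gated, a class with 36 of the 73 genes tested. Another 5 voltage-gated genes were lower in replicates 1 and 2, where 13% of all genes were higher and 16.6% lower. Among the marker lists, all 7 astrocyte markers and all 7 of fibroblasts and vessels were lower in CPM in replicates 1 and 2. The latter summed to 15.2 to 21.6 and 47.9 to 50.7 TPM, mostly from Dcn. Of these 7, 5 were under 1 TPM, and Col1a1 overlapped between the sides in TPM. The oligodendrocyte markers summed to 35.9 to 41.8 and 93.1 to 113 TPM, mostly from Olig1, and 4 of these 7 did not overlap between the sides, whereas Mbp and Pdgfra overlapped and Mog was at 0. In the same order, the microglia markers summed to 4.71 to 7.33 and 9.02 to 13.6 TPM, the neuron markers to 4955 to 5220 and 4606 to 4741 TPM and the inhibitory neuron markers to 4730.4 to 5035 and 3032 to 3766 TPM. In CPM, only 3 of the 6 microglia, 3 of the 8 neuron and 5 of the 7 inhibitory neuron markers did not overlap between the sides. The microglia sum came mostly from C1qa, and Csf1r overlapped. Sst gave the largest part of the inhibitory neuron sum, and Vip and Pvalb overlapped. Whether the share of these cells accounts for the differences of the channel genes was not tested. The interaction of treatment and side called 0 of the 73 genes (0.0267% of all genes), with a lowest adjusted P of 0.479 (edgeR).

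**Figure D5:**
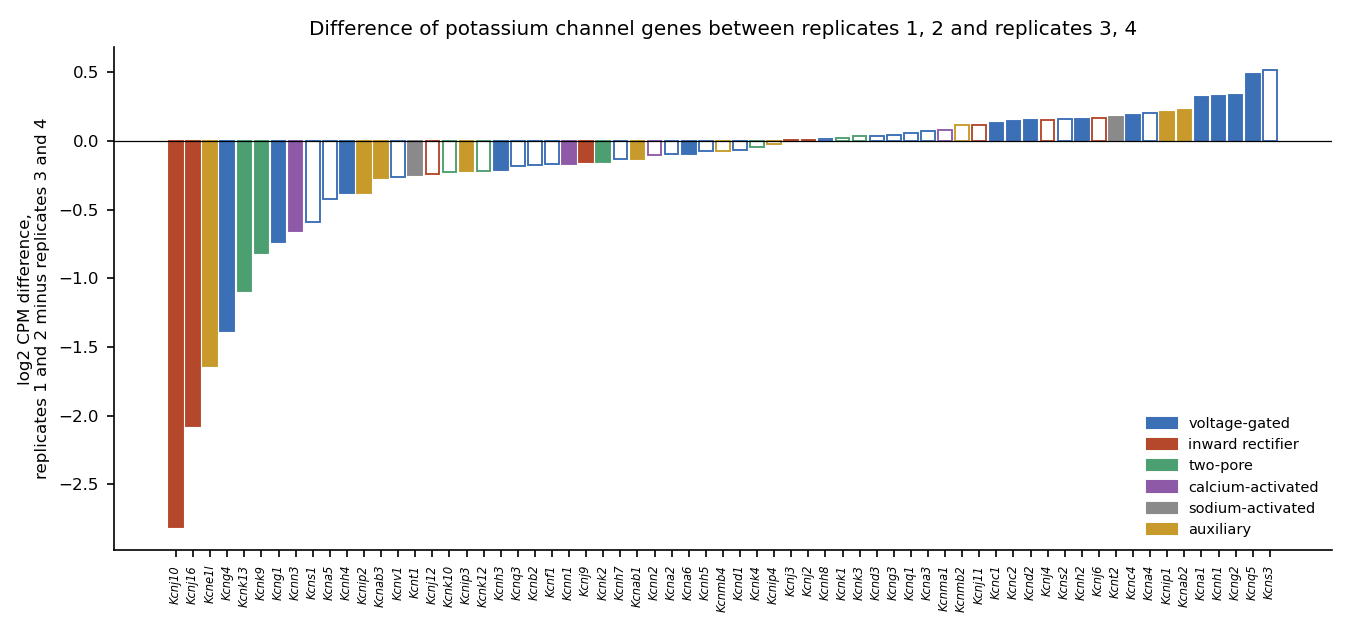
Log2 difference of CPM between replicates 1 and 2 and replicates 3 and 4, over both treatments, for the tested channel and auxiliary genes reported by name, ordered by value. Filled bars are genes whose wells do not overlap between the sides (near 0 a bar is too thin to show its fill). *Kcnj10* and *Kcnj16* stand out at −2.81 and −2.07.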

How the data were processed

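Treatments and replicate numbers were taken from the sample labels, and dose, time and cultures from the study's methods. The authors quantified reads with nf-core/rnaseq 3.0 and salmon on GRCm38 and deposited estimated counts per gene, not normalized, and per transcript, with salmon's TPM and effective lengths. Estimated counts were rounded and tested in R 4.3.3 with edgeR 4.0.16 (TMM factors, filterByExpr, robust quasi-likelihood test, Benjamini–Hochberg adjustment over 14962 genes) without a block, and also with DESeq2 1.42.0, other size factors, no filter on low counts, a length offset, the replicate number or the side as a block, and each well left out. CPM are counts scaled with the TMM factors. TPM of a gene are sums over its transcripts in GENCODE vM21, which named 98.8% of the genes and may not be the release the authors used; 71 of the 74 potassium channel genes had transcript sums that differed from the gene table by at most 1 read.

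Channel classes were assigned by hand from symbols. The genes and lists, and the rule for naming genes, were chosen with earlier results of these data known. The rule named genes called without a block, by DESeq2 or with the side block. It also named those with the 5 lowest and 5 highest fold changes among genes whose wells do not overlap. Further ones were the 3 highest TPM of each main class, the GIRK and M-current genes and those nearest the count rule. Values per well are given for only part of these genes. Others were named after their values were seen. The values of 4 voltage-gated genes are not reported here, although they count among the 74.

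Both treatments share replicate numbers. After each treatment mean was taken off log2 CPM, wells correlated at 0.445 to 0.545 in the 4 pairs with the same number, 0.475 to 0.521 between other numbers on the same side and −0.548 to −0.438 across sides. All pairs exceeded 0.1, and the numbers were used to pair the wells. Wells of the same number were, however, about as alike as other wells on the same side. The counts thus show no pairing by number beyond the side, and this limits the calls made with the replicate block. The side is the sign of the first principal component of these residuals, so fits with that block use the counts more than once. The tests were tried on simulated counts with planted changes larger than any channel change reported here. That trial does not show how the fits treat changes of the size reported. Promoter windows are RefSeq's on GRCm38.p6.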

Additional observations from a re-analysis of the deposited data

Results flagged for a closer look

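In 3 of the 56 groups of 4 wells looked at, 1 well stood far from the other 3 by Dixon's criterion, where chance alone flags about 1 group in 20. Vehicle replicate 2 of *Kcnb2* had 16.56 CPM, against 20.3 to 20.7 CPM in the other vehicle-treated wells. MCH replicate 1 of *Kcnma1* had 160.7 CPM, against 132 to 136 CPM in the other MCH-treated wells. MCH replicate 2 of *Kcnq3* had 297.5 CPM, against 344 to 351 CPM in the other MCH-treated wells.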

How the results depend on the processing

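The number of potassium channel genes called was 0 without a block, with other size factors, with the length offset and with each well left out in turn (0 to 0), 1 with DESeq2 and 1 without the filter on low counts (*Kcnf1* in both), 8 with the replicate block and 7 with the side block. Transcript calls were 0 in every fit run, wells left out included (0 to 0). The length offset reversed 2 of the 23 named and tested genes, *Kcna4* to 0.14 and *Kcnk2* to −0.0058, and *Kcna4* has a short noncoding transcript whose share changes the mean length of the gene. With 1 well left out in turn, 5 uncalled named genes changed sign in at least 1 fit. Their log2 fold changes ranged from −0.11 to 0.041 (*Kcna1*), −0.029 to 0.0087 (*Kcnj3*), −0.028 to 0.34 (*Kcnk9*), −0.0087 to 0.063 (*Kcnn2*) and −0.00018 to 0.21 (*Kcnq5*). The class medians ranged from −0.0066 to 0.053 for voltage-gated, −0.091 to 0.091 for inward rectifier, −0.12 to 0.00044 for two-pore, 0.0010 to 0.15 for calcium-activated and −0.059 to 0.016 for auxiliary genes. The summed levels of the classes moved little with a well left out (862 to 875, 243 to 245, 137 to 139.6, 197 to 202 and 477 to 484 TPM in the same order). Without the highest member they were 748, 114, 67.3, 74.7 and 352 TPM. Without transcripts under 500 bases, the voltage-gated sum was 834 and the auxiliary sum 459.8 TPM. Without the transcripts that the gene table counts elsewhere, an alternative chosen after seeing the data, the voltage-gated sum was 832 and the calcium-activated sum 128 TPM. The causes of the other shifts were not tested. With 4 wells per treatment and both sides in each, changes of about 0.1 on the log2 scale were within the error of most genes, and genes near 10 counts allow no comparison.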
